A study of Mus musculus with 12 samples.

Results

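The hippocampal subfield marker genes are 31 genes known as markers of 4 parts of the hippocampus: 6 genes of CA1, 5 of CA2, 5 of CA3 and 15 of the dentate gyrus. Not all are specific to their field, since *Calb1*, listed for the dentate gyrus, is also known from CA1 pyramidal cells, and *Pcp4*, listed for CA2, from dentate granule cells. They were taken by name as known markers of these fields, with earlier results of these data known, and matched to the Ensembl identifiers of the 55421 genes in the count files. Poly(A) RNA of the hippocampus had been sequenced from 12 mice, 1 library per animal, in 4 groups of 3: wild type given vehicle (WT-Veh, animals RH2, RH5 and RH15), wild type given Nutlin-3 (WT-Nut3, RH1, RH9 and RH14), *Fmr1* knockout given vehicle (KO-Veh, RH7, RH10 and RH16) and *Fmr1* knockout given Nutlin-3 (KO-Nut3, RH6, RH8 and RH13). Nutlin-3, an inhibitor of the ubiquitin ligase MDM2, or its vehicle was injected intraperitoneally into mice aged 2 months, and hippocampi were collected when they were 6 months old. Per the study's methods the mice were on a C57B/L6 background. Whether the sequenced mice also carried the *Nestin-GFP* transgene of the study's crosses was not stated. Between 17150820 and 20040482 reads fell on genes per library, and all 31 markers were among the 22592 genes with more than 20 reads over the 12 libraries.

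The hippocampus is a loop of cell fields laid side by side. Granule neurons of the dentate gyrus receive the cortical input and send mossy fibres to the pyramidal neurons of CA3, which project on to CA1, while the small CA2 field lies between CA3 and CA1 and is known for social memory. Each field keeps its own set of expressed genes in the adult, so the ratio of these genes in a dissected piece of tissue reflects how much of each field the piece holds as well as what its cells transcribe. In bulk tissue, fewer cells of a type and less RNA per cell cannot be told apart.

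*Fmr1*, the targeted gene, lay between 73.9 and 79.5 CPM (a gene's reads per 1000000 reads on genes, after TMM scaling of the libraries) in the 6 wild-type libraries and between 28.5 and 37.3 CPM in the 6 knockout libraries. Each knockout library was thus below each wild-type library.

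A single library stood apart before any group was compared. KO-Nut3 RH6 had the lowest level of 19 of the 31 markers, and it had the highest of 0. Over all 22592 genes tested, 15% were lower and 15.3% higher in this library than in each of the other 11. No other library was lowest for more than 4 markers (WT-Veh RH5, lowest for 7.99% of all genes). WT-Veh RH2 was highest for 9 markers and lowest for 0, and over all genes it was highest for 11.5% and lowest for 12.3%. Where KO-Nut3 is compared with another group, the split into higher and lower markers and the number past the test are therefore given with and without RH6.

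**Figure D1:**
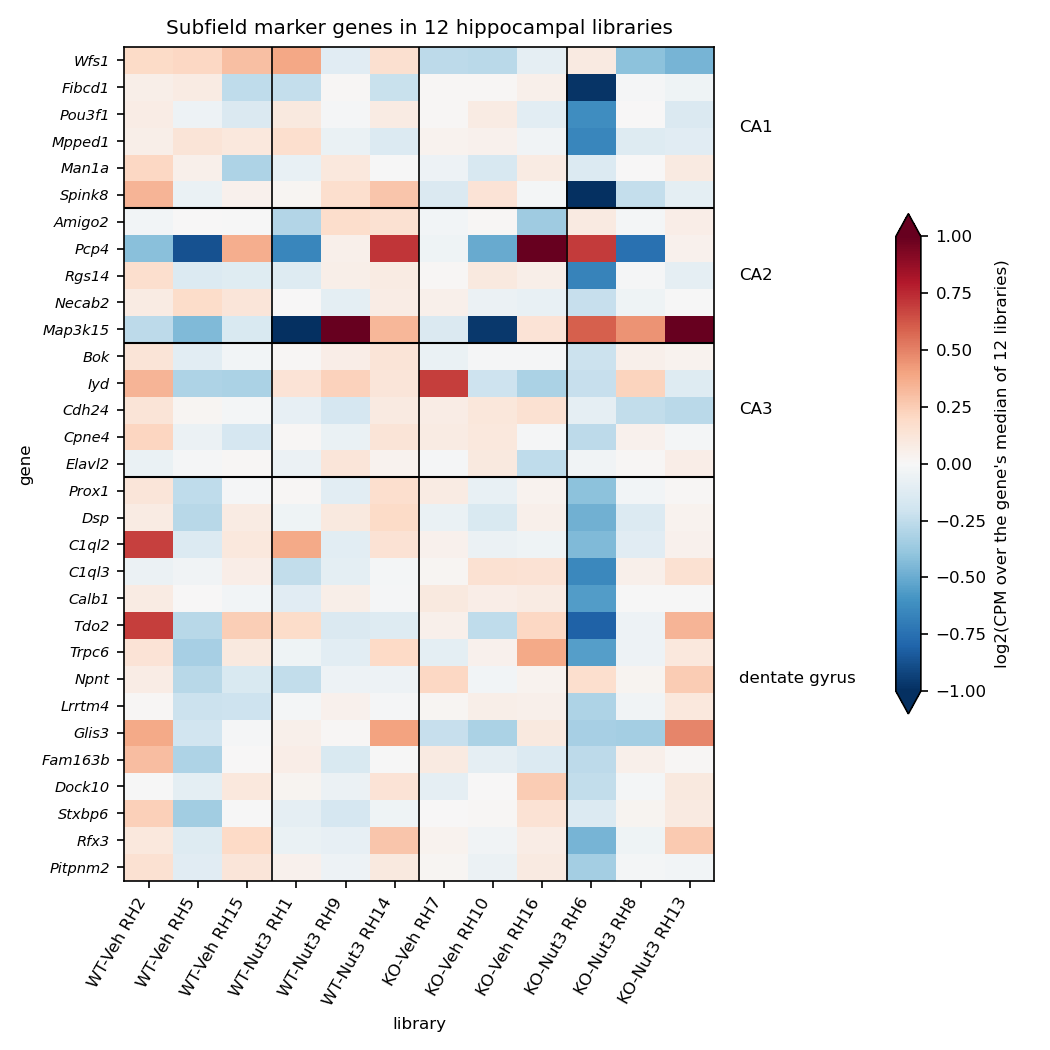
Level of each of the 31 marker genes (rows, grouped by subfield) in each of the 12 libraries (columns, grouped by genotype and treatment), as log2 of the CPM over the gene's own median, with the colour scale ending at 1 in both directions. The column of KO-Nut3 RH6 is blue for most rows, with *Wfs1*, *Amigo2*, *Pcp4*, *Map3k15* and *Npnt* above their medians.

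The markers were detected in all 12 libraries, and their levels differed widely between genes. Compared per kilobase of exon, the most abundant CA1 markers were *Mpped1* (a metallophosphoesterase domain protein, mean 48.9 CPM per kb), *Fibcd1* (a membrane receptor with a fibrinogen domain, 36.9 CPM per kb) and *Wfs1* (wolframin of the endoplasmic reticulum, 28.7 CPM per kb). *Pou3f1*, a POU domain transcription factor, followed at 22.3 CPM per kb, the protease inhibitor *Spink8* at 17.1 CPM per kb and the Golgi mannosidase *Man1a* at 8.47 CPM per kb. In CA2, the calcium-binding protein *Necab2* had 40.3 CPM per kb and *Rgs14*, a regulator of G protein signalling that restrains plasticity in this field, had 24.1 CPM per kb, while the adhesion molecule *Amigo2* had 8.41 CPM per kb. In CA3 the order was *Bok*, a Bcl-2 family protein (39.9 CPM per kb), the copine *Cpne4* (19.7 CPM per kb), the neuronal RNA-binding protein *Elavl2* (10.1 CPM per kb), the cadherin *Cdh24* (7.52 CPM per kb) and the deiodinase *Iyd* (2.54 CPM per kb). Neighbours in these orders were compared by their means alone, and the length used for each gene is that of all its annotated exons together.

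Of the dentate markers, *Fam163b* (54.6 CPM per kb) and *C1ql2* (a secreted C1q-like protein of mossy fibre synapses, 50.5 CPM per kb) were at the top of the per-length order. *Pitpnm2*, a phosphatidylinositol transfer protein, had the most reads of all 31 markers (mean 396.4 CPM) but a long exon model, and stood at 30.9 CPM per kb. *Stxbp6* (23.4), the calcium buffer calbindin, *Calb1* (23.3), *C1ql3* (15.3), *Prox1*, the homeobox factor that sets granule cell identity (14.2), and the transcription factor *Rfx3* (12.4) were next on the scale of CPM per kb. The guanine nucleotide exchange factor *Dock10*, the cation channel *Trpc6*, desmoplakin (*Dsp*) and nephronectin (*Npnt*) lay between 5.69 and 6.87 CPM per kb, and the synaptic adhesion molecule *Lrrtm4* (2.60), the zinc finger factor *Glis3* (2.40) and the tryptophan dioxygenase *Tdo2* (1.34) were lowest. This order holds for the counts used only. In them up to 75.2% of the *C1ql3* reads and 59.9% of the *Lrrtm4* reads were set aside, as described next.

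A pair of CA2 markers cannot be read at face value in these counts. *Pcp4* (chr16:96467606-96525793, plus strand, GRCm38), a calmodulin-binding peptide gene, was given between 5 and 17 reads per library, a mean of 0.513 CPM. The annotation places 243 bases of its exons inside exons of *Igsf5* on the same strand, and in this kind of counting a read that touches both genes is given to neither. *Map3k15* (chrX:159988433-160123351, plus strand), a kinase of stress signalling, shares 603 exon bases with *Pdha1* on the other strand. It had 740 reads over the 12 libraries in the column used here, against 20645 in the sum of the columns that count each strand, where 96.4% of its reads are ones that the first column left out and that may belong to *Pdha1*. The same sum also gave more reads to *C1ql3* (34664 against 8595) and *Lrrtm4* (8827 against 3539), which share exon bases with *Gm37811* and *Gm4409* on the opposite strand. For the other 28 markers less than 10% of the reads were set aside in this way.

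The spread of the markers over the 12 libraries was compared with that of other genes. The coefficient of variation had a median of 12% over the 31 markers, against 9.80% for the 15346 tested genes above 1 CPM and 16.7% for all 22592 tested genes. Over the markers it differed by gene. It was lowest for *Elavl2* (6.54%), *Bok* (6.60%) and *Necab2* (7.60%), and highest for *Map3k15* (50.1%) and *Pcp4* (44.7%). *C1ql2* stood at 21.0%, *Spink8* at 21.0% and *Glis3* at 21.2%. The extremes of *C1ql2* were WT-Veh RH2 at 154.2 CPM and KO-Nut3 RH6 at 71.0 CPM.

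The level of a subfield in a library was summarised as the mean of log2(CPM + 1) over its markers, each gene centred on its mean over the 12 libraries. For CA1 it was 0.11 ± 0.10 (SD, n = 3) in WT-Veh and 0.09 ± 0.02 in WT-Nut3, and the knockouts had 0.02 ± 0.02 with vehicle and -0.21 ± 0.24 with Nutlin-3, where RH6 stood at -0.50 and RH8 and RH13 at -0.07 each. The dentate gyrus list had 0.03 ± 0.19 in WT-Veh and 0.02 ± 0.08 in WT-Nut3, against 0.03 ± 0.07 in KO-Veh and -0.08 ± 0.25 in KO-Nut3, with RH6 again lowest at -0.36 and RH13 at 0.14. The CA3 list ranged from -0.15 in KO-Nut3 RH6 to 0.14 in WT-Veh RH2, and the CA2 list from -0.27 in WT-Nut3 RH1 to 0.20 in WT-Nut3 RH9, with *Map3k15* the member that differed most between these libraries (1.32 and 6.16 CPM).

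The CA1 level minus the dentate gyrus level compares both fields within each library. It was highest in WT-Veh RH5 at 0.29 on the log2 scale, the library in which 3 of the 15 dentate markers (*Npnt*, *Fam163b* and *Stxbp6*) were at their lowest. The lowest values were -0.21 in KO-Nut3 RH13 and -0.14 in KO-Nut3 RH6. The other 9 libraries lay between -0.07 (KO-Veh RH16) and 0.11 (WT-Nut3 RH9). By group this difference was 0.08 ± 0.18 in WT-Veh and 0.06 ± 0.08 in WT-Nut3, against -0.02 ± 0.07 in KO-Veh and -0.13 ± 0.09 in KO-Nut3, and the KO-Nut3 libraries overlapped with KO-Veh. Each KO-Nut3 library (at most -0.042) lay below each wild-type library, the lowest of which was WT-Veh RH15 at -0.040. RH6, although low in both fields, was not the extreme of this difference, since its CA1 and its dentate level were low together.

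**Figure D2:**
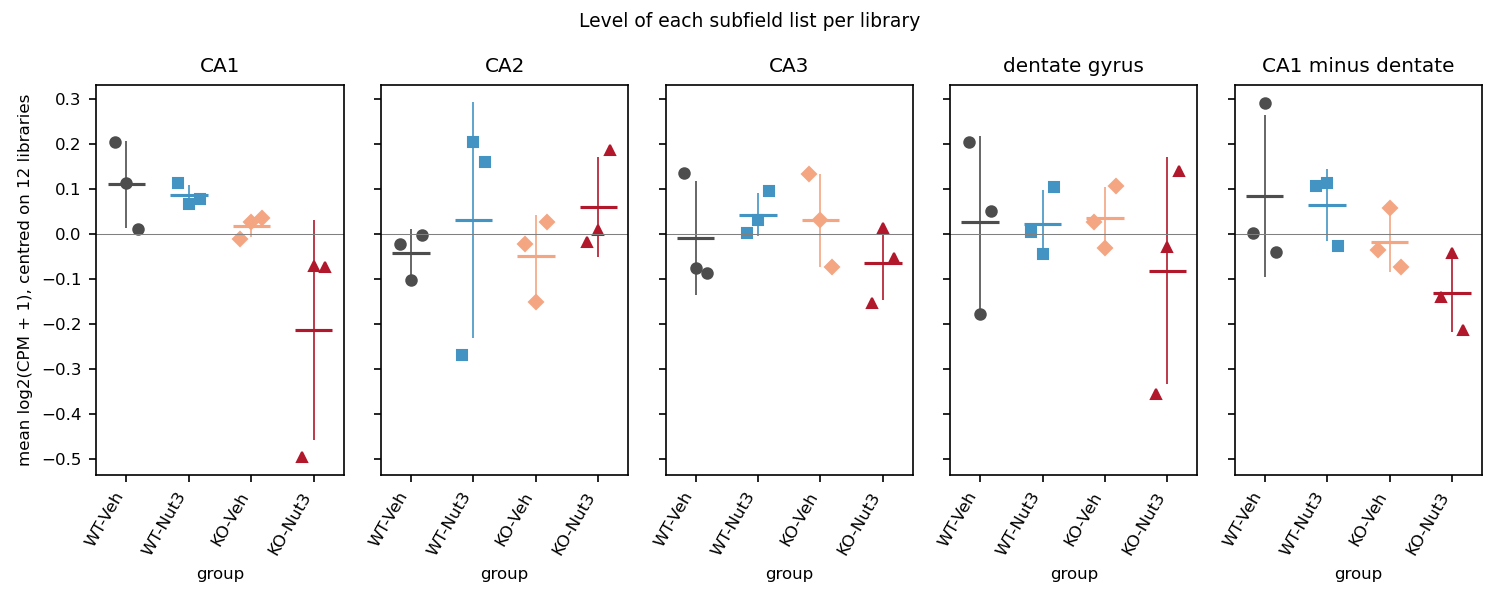
Mean log2(CPM + 1) of the markers of each subfield, centred on the 12 libraries (y axis), by group (x axis), with 1 point per library, the bar at the group mean and the vertical line at 1 SD in each direction; the last panel is the CA1 minus the dentate gyrus level. The lowest CA1 and dentate points, at -0.50 and -0.36, are both KO-Nut3 RH6.

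The CA1 markers were not evenly low in KO-Nut3 RH6. *Spink8* stood at 6.54 CPM against a median of 14.4 CPM in the other 11 libraries, *Fibcd1* at 95.6 against 189.8 CPM, *Mpped1* at 137.1 against 221.1 CPM and *Pou3f1* at 57.5 against 89.2 CPM, each below the lowest of the other libraries. *Wfs1* (115.6 against 102.0 CPM) and *Man1a* (74.7 against 82.5 CPM) were within their range. Of the dentate markers, 11 of 15 were below each of the other libraries, with *Tdo2* at 55.3%, *C1ql3* at 63.2%, *Trpc6* at 66.1%, *Calb1* at 67.7% and *Prox1* at 74.7% of the median of the others. *Npnt* (114.8%), *Stxbp6*, *Fam163b* and *Glis3* were not. In CA2, *Rgs14* (62.6%) and *Necab2* (85.2%) were lowest in RH6, and in CA3 *Bok* (85.4%) and *Cpne4* (82.7%). As a log2 ratio to the other 11 libraries, the median was -0.66 for CA1, -0.42 for the dentate gyrus, -0.23 for CA3 and 0.10 for CA2, beside 0.02 for all genes tested. The CA2 median was that of *Amigo2*, with *Necab2* at -0.23 and *Rgs14* at -0.68 below it. Above it lay only *Pcp4* and *Map3k15*, at 0.74 each, which cannot be read at face value. The median therefore does not show that CA2 was spared in RH6.

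Genes outside the subfields moved in the same library. The 5 markers of excitatory forebrain neurons, which all 4 fields share, were each lowest in RH6, with *Slc17a7*, the vesicular glutamate transporter of the forebrain, at 915.2 CPM against 1503 CPM and *Camk2a*, the most abundant of the list, at 2753 against 4084 CPM. Set against this list, the CA1 level of RH6 was 0.09 and its dentate level 0.23, not below 0. The summed level of the 12 markers of thalamus and habenula was 328.4 CPM in RH6 and between 114.6 and 142.4 CPM in the other 11 libraries. Of these 12, 6 were higher in RH6 than in each other library, as were 15.3% of all genes tested. *Slc17a6*, the vesicular glutamate transporter of the thalamus and brainstem, had 112.5 CPM, against 8.42 to 22.2 CPM elsewhere, and the transcription factors *Tcf7l2* (32.7 against at most 7.33 CPM) and *Shox2* (13.6 against at most 0.17 CPM) were also high. *Rora*, the most abundant of the list, had 77.2 against a median of 41.4 CPM, while *Gbx2* was at 0 reads in 9 libraries and 0.06 CPM in RH6. *Gad2*, of the 7 markers of GABAergic interneurons, had 275.0 CPM against a median of 160.7 CPM, and 4 of that list were highest in RH6 and 3 lowest. What part these genes' source has in the marker values of RH6 was not tested.

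**Figure D3:**
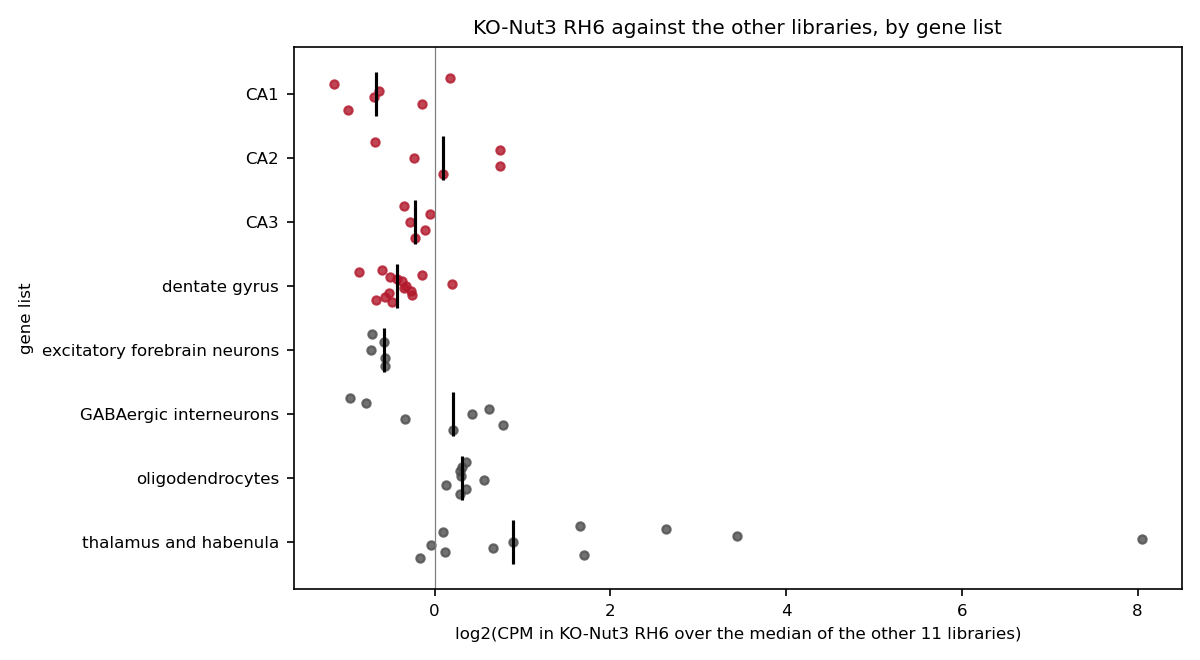
Log2 ratio of the CPM in KO-Nut3 RH6 to the median of the other 11 libraries (x axis) for the genes of 8 lists (y axis), with subfield markers in red, other lists in grey and a black bar at each list's median; *Gbx2*, with a median of 0, is not drawn, and *Shox2*, at the far right, rests on a median of about 1 read. Most CA1 and dentate points and all 5 points of the excitatory neurons lie left of 0, and most thalamic points lie right of it.

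The comparison of KO-Veh with WT-Veh asks what the loss of *Fmr1* does without the drug. *Wfs1* (ENSMUSG00000039474, chr5:36966104-36989205, minus strand, GRCm38) was at 124.0, 125.2 and 134.2 CPM in WT-Veh RH2, RH5 and RH15 and at 90.6, 90.2 and 102.0 CPM in KO-Veh RH7, RH10 and RH16. The groups did not overlap, and *Wfs1* fell from 127.8 ± 5.55 CPM (SD, n = 3) in WT-Veh to 94.2 ± 6.72 CPM in KO-Veh (a log2 fold change of -0.44 with a standard error, SE, of 0.0634, adjusted *P* of 0.0478 by the quasi-likelihood test of edgeR). It was the single marker of 31 that passed, where 0.0177% of all tested genes did. The call sat at the edge of the threshold: the log2 fold change ran from -0.49 to -0.40 when each of the 6 libraries was omitted in turn, and the adjusted *P* was below 0.05 in 1 of them (0.0201 without KO-Veh RH16) and up to 0.704 without KO-Veh RH10. With all 12 libraries in 1 fit it was 0.869 at a log2 fold change of -0.44, and DESeq2, which called 0.174% of all genes here and *Wfs1* alone of the markers, gave 1.31e-05 at -0.44. The share of reads mapped to several places was 3.07% to 3.22% in libraries up to animal RH8 and 3.33% to 3.55% from RH9 on, and with this division as a term the log2 fold change was -0.47 (adjusted *P* 0.00325).

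No other CA1 marker passed in this comparison. *Mpped1* was at 224.9, 236.2 and 232.4 CPM in WT-Veh and 221.1, 222.2 and 209.7 CPM in KO-Veh, with no overlap but a log2 fold change of -0.09 (adjusted *P* 0.774). *Fibcd1* was at 196.0, 199.7 and 158.1 CPM and at 189.8, 189.9 and 195.7 CPM, and its groups overlapped. *Necab2* of CA2 was lower in each KO-Veh library (87.4, 81.0 and 80.0 CPM) than in WT-Veh (89.1, 95.7 and 91.6 CPM), with a log2 fold change of -0.15 (SE 0.0568, adjusted *P* 0.631). *C1ql2* had 154.2, 87.6 and 103.3 CPM in WT-Veh and 99.3, 92.5 and 93.2 CPM in KO-Veh. Its log2 fold change of -0.27 (SE 0.145, adjusted *P* 0.744) became -0.01 without WT-Veh RH2, the library at 154.2 CPM. With every gene of at least 1 count in the edgeR fit, *C1ql2* passed beside *Wfs1* (adjusted *P* 0.00604), where 0.757% of all genes did.

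Over the whole list, 16 markers were higher and 15 lower in KO-Veh than in WT-Veh. The median over the 31 log2 fold changes was 0.02, beside -0.00 for all genes. At an unadjusted *P* under 0.05, where 7.20% of all genes fell, there were 2 markers, *Wfs1* and *Necab2*. By subfield the median was -0.06 for CA1, 0.02 for CA2, 0.06 for CA3 and 0.06 for the dentate gyrus. Leaving out 1 library put each of these medians on either side of 0 (-0.11 to 0.04 for CA1, -0.06 to 0.06 for CA2, -0.00 to 0.11 for CA3 and -0.06 to 0.09 for the dentate gyrus). The groups did not overlap for 1 marker that was higher (*Lrrtm4*) and 3 that were lower, where 5.90% and 6.46% of all tested genes did so in these directions.

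**Figure D4:**
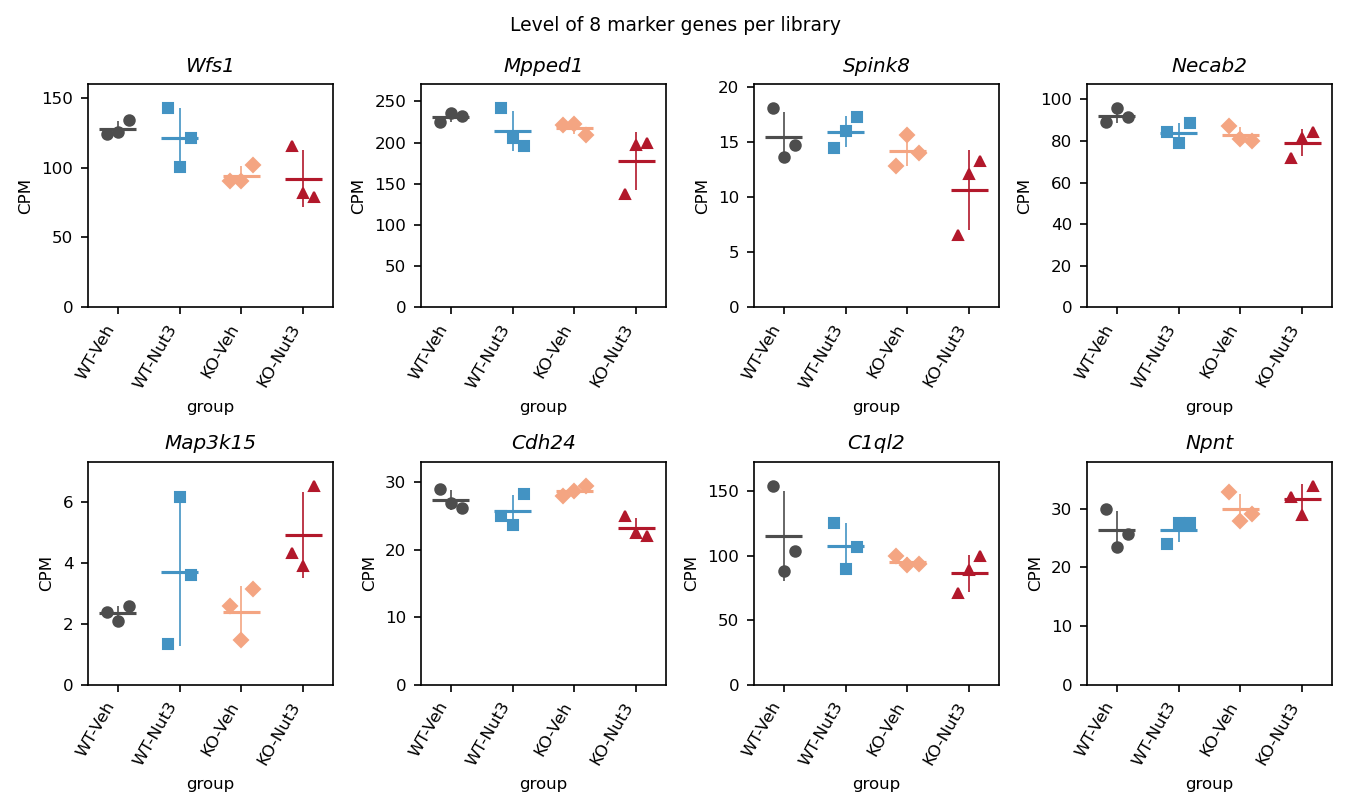
CPM of 8 marker genes (y axis from 0) by group (x axis), with 1 point per library, the bar at the mean and the vertical line at 1 SD in each direction. The *Wfs1* points of KO-Veh lie between 90.2 and 102.0 CPM, below the WT-Veh points between 124.0 and 134.2 CPM, and the high *Map3k15* points are WT-Nut3 RH9 and KO-Nut3 RH13.

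The comparison of KO-Nut3 with KO-Veh asks what the early Nutlin-3 injections left behind in the knockout. Of the 31 markers, 6 were higher and 25 lower in KO-Nut3, and 0 passed the test, against 0.199% of all tested genes (45 genes). At an unadjusted *P* under 0.05, where 7.60% of all genes fell, there were 3 markers. DESeq2 called 0 markers and 1.28% of all genes. The median log2 fold change was -0.26 for CA1, -0.07 for CA2, -0.14 for CA3 and -0.11 for the dentate gyrus, beside 0.00 for all genes. Without KO-Nut3 RH6 it was -0.10 for CA1, 0.00 for CA2, -0.05 for CA3 and -0.00 for the dentate gyrus, 13 markers were higher and 18 lower, and 0 passed where 0.288% of all genes did (4 markers at an unadjusted *P* under 0.05, beside 6.37% of all genes). RH6 had been picked out as the lowest library for 19 of the 31 markers, so smaller drops without it are in part built in. Of the 6 CA1 markers, 5 were lower with RH6 and 5 without it. With the level of choroid plexus markers (the tissue that secretes cerebrospinal fluid) as a term over all 6 libraries, the median was -0.020 for CA1, 0.071 for CA2 and 0.10 for CA3. The choroid plexus level, centred over the 12 libraries, was at least 0.42 in KO-Nut3 and at most -0.97 in KO-Veh. The term and the treatment therefore cannot be told apart, and nothing is concluded from this fit. The dentate gyrus median moved with the term by less than the SD of that list's level within groups, unlike those of CA1, CA2 and CA3.

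Among single genes in this comparison, the groups did not overlap for 1 marker that was higher (*Map3k15*) and 5 that were lower (*Fibcd1*, *Mpped1*, *Rgs14*, *Cdh24* and *Calb1*), where 7.85% and 5.46% of all genes did so. *Cdh24* had 27.9, 28.7 and 29.5 CPM in KO-Veh RH7, RH10 and RH16 and 25, 22.4 and 22.0 CPM in KO-Nut3 RH6, RH8 and RH13 (log2 fold change -0.31, SE 0.0863, adjusted *P* 0.300). It did not depend on RH6, without which the log2 fold change was -0.37 (adjusted *P* 0.190). *Mpped1* had 137.1, 196.8 and 199.1 CPM in KO-Nut3 (log2 fold change -0.30, SE 0.123, adjusted *P* 0.618) and a log2 fold change of -0.14 without RH6. *Fibcd1* had 95.6, 187.0 and 183.1 CPM in KO-Nut3 against 189.8, 189.9 and 195.7 CPM in KO-Veh, so that the gap lay mainly in RH6, and *Rgs14*, at 106.0, 112.8 and 109.5 CPM in KO-Veh, had 66.4, 104.7 and 99.2 CPM.

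*Map3k15* had 2.58, 1.47 and 3.13 CPM in KO-Veh and 4.32, 3.89 and 6.53 CPM in KO-Nut3 (log2 fold change 1.03, SE 0.301, adjusted *P* 0.345). With every gene of at least 1 count in the fit it passed (adjusted *P* 0.0209), as 1.51% of all genes did. In wild-type mice it had 2.39, 2.10 and 2.57 CPM with vehicle and 1.32, 6.16 and 3.59 CPM with Nutlin-3, so that its highest libraries were KO-Nut3 RH13 and WT-Nut3 RH9. Those are also the libraries with the most transcripts of choroid plexus epithelium, the cell layer that secretes cerebrospinal fluid. The summed level of that list's 10 genes was 5047 CPM in KO-Nut3 RH13, 4703 in WT-Nut3 RH9, 3506 in KO-Nut3 RH6 and 377.5 in KO-Nut3 RH8, against 27.9 to 51.6 CPM in the other 8 libraries. With the choroid plexus level as a term in the fit, the log2 fold change of *Map3k15* was 0.32. That term cannot be told apart from the treatment here. In the sum of the strand columns, which holds the reads on exons shared with *Pdha1*, it was -0.02. Of those summed reads, 96.4% were ones left out of the column used, which may belong to *Pdha1*. Neither value is read as a measure of *Map3k15* itself.

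**Figure D5:**
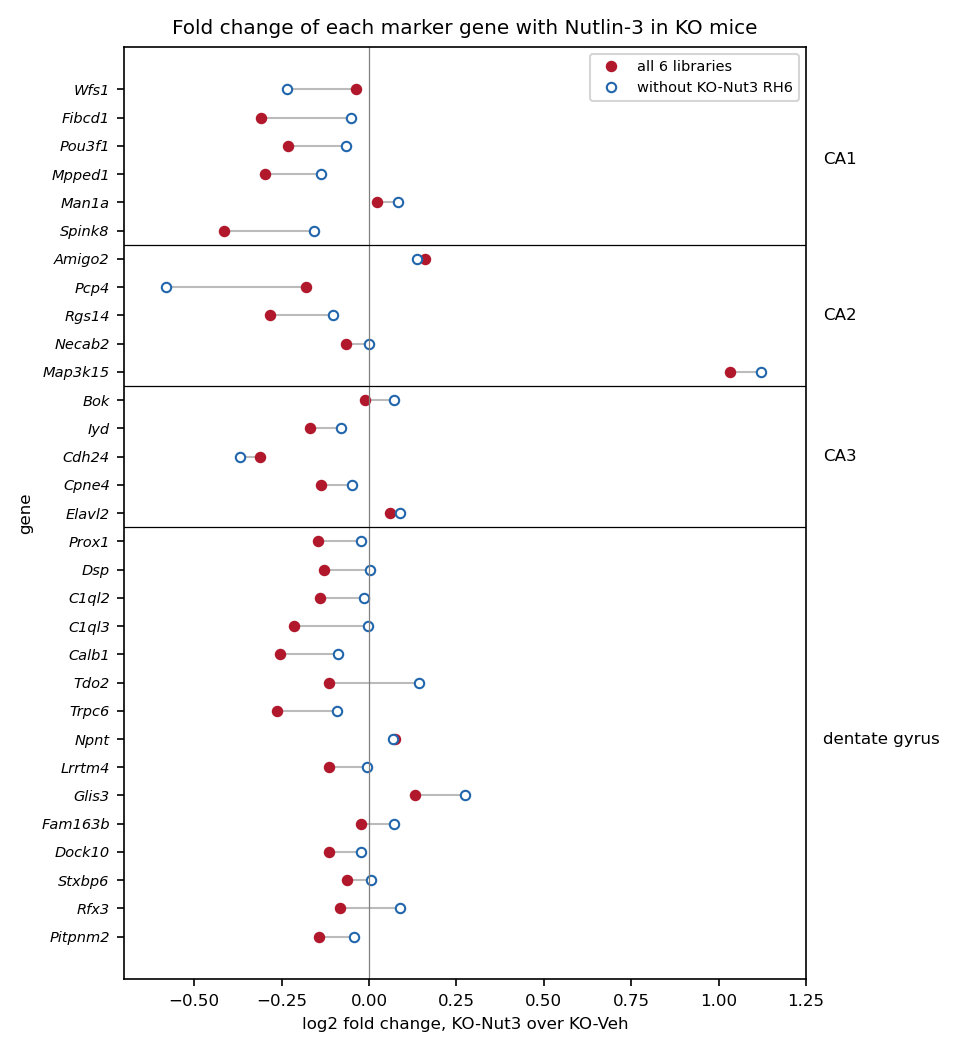
Log2 fold change of each marker between KO-Nut3 and KO-Veh (x axis) for the 31 genes (y axis, by subfield) over all 6 libraries (filled) and without KO-Nut3 RH6 (open). Filled points lie left of 0 for 25 genes, and without RH6 most dentate points move to within 0.1 of 0.

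Markers of tissues and cells beside the hippocampal neurons differed in the same comparison. All 10 choroid plexus genes were higher in KO-Nut3, with *Ttr* (log2 fold change 8.05), *Folr1*, *Slc4a5* and *Tmem72* past the threshold, and 7 of 8 genes of meningeal fibroblasts were higher, with *Igf2* past it (log2 fold change 2.75). The most abundant genes of these lists were *Ttr* and *Dcn*. *Dcn*, which encodes the proteoglycan decorin, was the meningeal gene that was not higher, at 43.0, 56.8 and 56.6 CPM in KO-Veh and 20.3, 56.5 and 44.4 CPM in KO-Nut3 (log2 fold change -0.37, not past the threshold). The summed level of the meningeal list lay between 75.9 and 89.9 CPM in KO-Veh and between 88.3 and 183.6 CPM in KO-Nut3. What part such tissue has in the values of the 31 markers was not tested. Of the related subfield genes that are not among the 31, 1 passed in any of these comparisons. *Coch*, listed here for CA3 and encoding the matrix protein cochlin, had 3.15, 3.61 and 2.51 CPM in KO-Veh and 10.3, 8.47 and 12.2 CPM in KO-Nut3 (log2 fold change 1.74, SE 0.196, adjusted *P* 0.0117), while the most abundant gene of that list, the kainate receptor subunit *Grik4*, had 66.8, 61.8 and 59.0 CPM and 41.2, 56.8 and 63.7 CPM. WT-Nut3 RH9 had the next level of *Coch*, 7.65 CPM, and the other 8 libraries had at most 5.09 CPM. These 4 libraries are also the 4 with the highest summed choroid plexus level, though not in the same order, and what part that tissue has in the level of *Coch* was not tested.

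The comparison of WT-Nut3 with WT-Veh gives the same question in wild-type mice. There, 18 markers were higher and 13 lower, with a median log2 fold change of 0.03 beside 0.00 for all genes, and 0 of 31 passed, as did 0% of all genes (1 marker at an unadjusted *P* under 0.05, where 3.17% of all genes fell, and 0 markers and 0% of all genes by DESeq2). *Necab2* was the marker with the smallest *P*-value. It had 84.3, 78.9 and 88.5 CPM in WT-Nut3, each below WT-Veh (log2 fold change -0.13, SE 0.0602, adjusted *P* 0.998), and it was the 1 marker whose groups did not overlap, where 3.60% of genes were apart in the higher and 3.93% in the lower direction. *Pou3f1* had 93.4, 85.6 and 80.1 CPM in WT-Veh and 94.7, 88.2 and 93.6 CPM in WT-Nut3 (log2 fold change 0.10, SE 0.0649, adjusted *P* 0.998). The dentate markers with the most reads overlapped, with *Pitpnm2* at 440.4, 367.9 and 431.0 CPM in WT-Veh and 408.2, 383.1 and 425.6 CPM in WT-Nut3, and *Fam163b* at 203.4, 132.8 and 165.0 CPM and at 172.2, 147.9 and 164.2 CPM. The CA3 markers *Cpne4* (125.4, 103.3 and 95.9 CPM, then 108.8, 103.0 and 117.7 CPM) and *Elavl2* (80.4, 83.9 and 84.9 CPM, then 81.2, 91.7 and 86.3 CPM) overlapped too.

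The comparison of KO-Nut3 with WT-Nut3 asks whether the genotypes differ once both have had the drug. Here 26 markers were lower and 5 higher in KO-Nut3, among them all 6 of CA1 and all 5 of CA3 on the lower side, but 0 passed the test, where 0.00443% of all genes did. Without RH6 the split was 17 lower and 14 higher, with 4 of 6 CA1 and 4 of 5 CA3 markers lower, 0 passed where 0.00443% of all genes did, and 5 had an unadjusted *P* under 0.05, beside 4.11% of all genes. At an unadjusted *P* under 0.05, where 4.87% of all genes fell, there were 3 markers. DESeq2 called 0 markers and 0.0310% of all genes. *Npnt* was higher in each KO-Nut3 library (32.1, 29.0 and 34.0 CPM) than in WT-Nut3 (24.0, 27.5 and 27.5 CPM), with a log2 fold change of 0.26 (SE 0.0945, adjusted *P* 0.928), and its value without RH6 was also 0.26. *Spink8* was lower in each (6.54, 12.1 and 13.3 CPM against 14.4, 16 and 17.3 CPM), with a log2 fold change of -0.59 (SE 0.229, adjusted *P* 0.928) that was -0.33 without RH6. These were the 2 markers whose groups did not overlap, where 5.30% of all genes were apart in the higher and 5.35% in the lower direction.

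*Wfs1* went the other way with RH6. It had 142.4, 100.3 and 121.3 CPM in WT-Nut3 and 115.6, 81.7 and 78.7 CPM in KO-Nut3, RH6 having the highest *Wfs1* of the 6 knockout libraries. The log2 fold change between these groups was -0.40 (SE 0.164, adjusted *P* 0.928), and without RH6 it was -0.60 with no overlap (adjusted *P* 0.999). Between KO-Nut3 and KO-Veh it was -0.04 (adjusted *P* 0.963), and -0.23 without RH6.

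The comparison of KO-Nut3 with WT-Veh sets treated knockouts beside untreated wild-type mice, and it shares the WT-Veh libraries with both comparisons against WT-Veh above and the KO-Nut3 libraries with both comparisons of KO-Nut3 above. Of the 31 markers, 23 were lower and 8 higher, all 6 of CA1 being lower with a median log2 fold change of -0.31, and 0 passed in edgeR, where 0.00443% of all genes did. Without RH6 the split turned, with 13 lower and 18 higher, and 4 of the 6 CA1 markers were lower with a median of -0.13. All 10 choroid plexus genes were higher in KO-Nut3 here too (median log2 fold change 5.69, 0 past the threshold). With their level as a term the CA1 median was -0.058. That level was at most -1.375 in WT-Veh and at least 0.42 in KO-Nut3, so the term and the group difference cannot be told apart. At an unadjusted *P* under 0.05, where 9.17% of all genes fell, there were 7 markers, and DESeq2 called 2, *Wfs1* and *Map3k15*, among 1.03% of all genes. With every gene of at least 1 count in the edgeR fit, *Wfs1*, *Mpped1* and *Map3k15* passed, among 1.16% of all genes. *Wfs1* had a log2 fold change of -0.47 (SE 0.132, adjusted *P* 0.303), and without RH6 it was -0.67 and passed (SE 0.0619, adjusted *P* 0.00847), as 0.0221% of all genes did (5 markers at an unadjusted *P* under 0.05, beside 8.53% of all genes). *Mpped1* had a log2 fold change of -0.38 (SE 0.125, adjusted *P* 0.401), -0.23 without RH6. *Map3k15* had 1.06 (SE 0.240, adjusted *P* 0.217). In the sum of the strand columns, where most reads of this gene may belong to *Pdha1*, the log2 fold change was -0.019. The groups did not overlap for 5 markers that were lower (*Wfs1*, *Mpped1*, *Spink8*, *Necab2* and *Cdh24*) and for *Map3k15*, which was higher, where 7.09% and 7.91% of all genes were apart in these directions.

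The interaction term over all 12 libraries asks whether the 2 genotypes answered Nutlin-3 differently. None of the 31 markers passed in edgeR (0% of all genes passed), 0 had an unadjusted *P* under 0.05, where 4.17% of all genes did, and DESeq2 called 0 markers and 0.00443% of all genes. Without RH6, 0 passed and *Cdh24* was the 1 marker with an unadjusted *P* under 0.05, beside 3.38% of all genes. The smallest *P*-values over the 12 libraries belonged to *Pou3f1* (interaction of -0.32 on the log2 scale, SE 0.166, adjusted *P* 0.994), which had 89.5, 93.9 and 82.6 CPM in KO-Veh and 57.5, 89.2 and 80.4 CPM in KO-Nut3, to *Cdh24* (-0.22, SE 0.121) and to *Rgs14* (-0.31, SE 0.186), whose wild-type values were 118.3, 95.8 and 96.8 CPM with vehicle and 96.3, 109.8 and 111.3 CPM with Nutlin-3. Without RH6 the interaction was -0.17 for *Pou3f1*, -0.14 for *Rgs14* and -0.28 for *Cdh24*. For *Wfs1* the interaction was 0.04 (SE 0.190) over the 12 libraries and -0.16 (SE 0.145) without RH6, and with the division of libraries by animal number as a term it was -0.039, so the difference between genotypes was not shown to depend on the drug.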

How the data were processed

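Hippocampal poly(A) RNA of 12 mice was sequenced, 1 library per animal. The deposited files hold raw read counts per gene, which the authors made with STAR on mm10 per the labels; the column that ignores strand was used, and 0 columns of other samples were present. The deposited table of all samples was not used here. Genes with more than 20 reads over the 12 libraries were fitted with edgeR 4.0.16 (R 4.3.3; TMM scaling, quasi-likelihood test, Benjamini-Hochberg adjustment over 22592 genes, threshold 0.05), on the 6 libraries of each pair of groups and on all 12 for the interaction; DESeq2 1.42.0 was an alternative. The fits were tested on simulated data. Each *P*-value sets the difference between groups against the spread between the 3 animals of a group, pooled over the groups in the fit and moderated over all genes tested. Named with values were the 3 markers with the smallest *P*-value in each comparison and the 2 most abundant of each subfield. *Map3k15*, among those 3 between WT-Nut3 and WT-Veh, was given there by its CPM alone. The most abundant markers were not all given in every library. The 31 markers and 17 other lists (116 genes) were chosen with earlier results of these data known. Coordinates are those of GRCm38 (GENCODE M21).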

Additional observations from a re-analysis of the deposited data

How the results depend on the processing

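No paired analysis was possible because the groups share no animal numbers. At 17150820 to 20040482 reads per library, *Pcp4* had 5 to 17 reads in each, and 3 animals per group limit every test. With edgeR's quasi-likelihood test, 1 marker passed between KO-Veh and WT-Veh (0.0177% of all genes). It was also 1, *Wfs1*, with DESeq2 (0.174% of all genes), DESeq2 size factors (0.0177%), the animal number division (0.0930%) and the choroid plexus term (0.0133%), and there were 0 with total counts alone (0.0133%), 0 with filterByExpr (0.0169%), 0 with all 12 libraries (0.00443%), 0 with the strand columns summed (0.0125%), 2 with every gene of at least 1 count (0.757% of all genes), and 0 to 1 when 1 library was left out. Between KO-Nut3 and KO-Veh the number was 0, and 1 with every gene of at least 1 count (1.51%). Between KO-Nut3 and WT-Veh it was 0, but 2 with DESeq2 (1.03%), 3 with every gene of at least 1 count (1.16%), and 0 to 1 leaving out 1 library, the 1 being *Wfs1* without KO-Nut3 RH6. With the choroid plexus level as a term, the dentate gyrus median moved by less than the SD of that list's level within groups. The choroid plexus level did not overlap between KO-Nut3 and either vehicle group, so this term and the group difference cannot be told apart. With that term, the median log2 fold changes of CA1, CA2 and CA3 were -0.020, 0.071 and 0.10 between KO-Nut3 and KO-Veh, and -0.058, -0.062 and 0.13 between KO-Nut3 and WT-Veh. Without that term, leaving out 1 library gave medians from -0.11 to 0.042 (CA1), -0.055 to 0.061 (CA2), -0.0012 to 0.11 (CA3) and -0.065 to 0.090 (dentate gyrus) between KO-Veh and WT-Veh. Between KO-Nut3 and KO-Veh they ran from -0.37 to -0.10 (CA1), -0.11 to 0.10 (CA2), -0.20 to -0.032 (CA3) and -0.22 to -0.0043 (dentate gyrus). Between KO-Nut3 and WT-Nut3 they ran from -0.34 to -0.12 (CA1), -0.12 to 0.082 (CA2), -0.16 to -0.027 (CA3) and -0.24 to 0.015 (dentate gyrus). Between KO-Nut3 and WT-Veh they ran from -0.40 to -0.13 (CA1), -0.024 to 0.088 (CA2), -0.11 to 0.041 (CA3) and -0.25 to 0.041 (dentate gyrus). The log2 fold change of *Wfs1* between KO-Nut3 and KO-Veh was 0.00038 with total counts and -0.23 to 0.066 leaving out 1 library; between WT-Nut3 and WT-Veh it was 0.083 with the choroid plexus term and -0.20 to 0.048 leaving out 1 library; its interaction was -0.039 with the animal number division and -0.16 to 0.16 leaving out 1 library. *Map3k15* was at -0.021 in KO-Nut3 against KO-Veh and -0.019 against WT-Veh with the strand columns summed, where most of its reads may belong to *Pdha1*. It was at -0.078 between WT-Nut3 and WT-Veh with the choroid plexus term. Relative to the excitatory neuron list, the CA1 level was -0.0068 in WT-Veh RH2, 0.079 in WT-Nut3 RH1, -0.031 in WT-Nut3 RH14, -0.089 in KO-Veh RH7, -0.063 in KO-Veh RH10 and 0.088 in KO-Nut3 RH6. The CA2 level was -0.23 in WT-Veh RH2 and 0.57 in KO-Nut3 RH6, and the CA3 level -0.076 in WT-Veh RH2, -0.011 in WT-Nut3 RH14 and 0.43 in KO-Nut3 RH6. The dentate level was -0.0079 in WT-Veh RH2, -0.0037 in WT-Nut3 RH14, -0.053 in KO-Veh RH7, -0.12 in KO-Veh RH10 and 0.23 in KO-Nut3 RH6. A pseudocount of 0.1 put the CA2 level at -0.21 in WT-Veh RH5, -0.25 in KO-Veh RH10 and 0.13 in KO-Veh RH16. All CA2 levels include *Pcp4* and *Map3k15*, which cannot be read at face value. The sum over strand columns and every value without RH6 beyond the planned omissions were chosen after seeing the data; the causes of these shifts were not tested.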

Other observations

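Further genes of the same fields, which are not among the 31 markers, were measured beside them. Between KO-Nut3 and KO-Veh, 0 of 4 other CA1 genes were higher (median log2 fold change -0.30, and without KO-Nut3 RH6 0 of 4 and -0.16). Of the other dentate granule genes 2 of 8 were higher (-0.12, and without RH6 3 of 8 and -0.02). The other CA2 genes had 4 of 8 higher (-0.06, and without RH6 4 of 8 and 0.02) and the other CA3 genes 2 of 5 (-0.06, and without RH6 3 of 5 and 0.10), with *Coch* past the threshold in both fits. Mossy cells of the dentate hilus had 3 of 4 genes higher (0.36, and without RH6 3 of 4 and 0.19). *Calb2*, their calretinin, stood at 52.6 CPM in RH6 against 18.3 to 30.7 CPM in the other 11 libraries, while *Ociad2*, the most abundant of the list, was lowest there at 76.0 CPM. Immature granule neurons had 3 of 5 genes higher (0.09), and without RH6 2 of 5 with a median of -0.08. *Dcx*, the microtubule protein of young neurons, was at 30.6, 27.3 and 26.5 CPM in KO-Nut3 and 27.9, 23.3 and 27.7 CPM in KO-Veh.

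The lists of other cells and tissues also differed with and without RH6 in this comparison. Excitatory forebrain neurons had 0 of 5 genes higher in both fits, with a median log2 fold change of -0.21 and, without RH6, -0.04. GABAergic interneurons had 4 of 7 higher (0.04), and without RH6 1 of 7 (-0.09). Thalamus and habenula had 10 of 11 tested genes higher (0.37), and without RH6 8 of 11 (0.05). Neocortex and subiculum had 6 of 9 (0.16), then 5 of 9 (0.09), and striatum 2 of 6 (-0.05), then 1 of 6 (-0.08). Microglia had 0 of 6 higher (-0.06), and without RH6 4 of 6 (0.02). Astrocytes had 4 of 6 (0.04), then 3 of 6 (-0.00), and endothelium 3 of 5 (0.19), then 4 of 5 (0.21). Choroid plexus epithelium had 10 of 10 higher in both fits (4.91, then 4.70), meningeal fibroblasts 7 of 8 in both (1.37, then 1.43) and oligodendrocytes 8 of 8 in both (0.21, then 0.11). With edgeR's quasi-likelihood test, 4 choroid plexus genes passed and 7 without RH6, and 1 meningeal gene passed in each fit.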
